A study of Mus musculus with 8 samples.

Results

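This account covers serpins and other inhibitors of proteases in basal cell carcinoma cells of the mouse. Members are the genes whose symbol starts with Serpin, Wfdc, Timp or Spink plus a number, together with Slpi, Cst3, Spint1 and Spint2, without Cst6 and Spink5. Csta, which the rule also names, matched no probe set by that symbol and was not analysed here. The rule found 61 genes among the 17097 that a single-symbol probe set reads, and each gene was represented by its brightest probe set on average. There were 41 members above a floor for dim signals (a log2 value above 4.85, the 25th percentile of all signals, on 2 or more arrays). The other 20 lay between 3.55 and 5.07 on all arrays and were not tested.

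The cells came from the back skin of 4 mice of the genotype K14-CreER/Ptch1cKO, in which an inducible Cre under the keratin 14 promoter deletes Ptch1 in keratinocytes, and all groups carry this deletion. Of these mice 2 were untreated and 2 received vismodegib, a drug that blocks Smoothened and thereby the Hedgehog pathway that Ptch1 loss switches on. Epidermis was parted from dermis with thermolysin, and living cells with surface Lrig1 were sorted into an Lgr5-negative population (spelled Lrg5-Lrig1+ in the labels) and an Lgr5-positive population (Lgr5+Lrig1+) by a green fluorescent reporter of Lgr5. Each of the 4 groups thus holds n = 2 mice, which limits precision, the p-values measure the spread between these mice, and the labels state no age, dose or duration of treatment. The study asks which tumour cells bring the carcinoma back after therapy, so the drug effect was compared within each population and the populations within each treatment. Values are log2 signals, differences are log2 fold changes ± their standard error from limma, and adjusted p-values are Benjamini-Hochberg values over all 14403 genes tested.

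All 8 keratinocyte markers lay above the floor on every array, with summed signals between 33400 and 38120. Single markers of this list differed between groups too. Krt15, a keratin of basal and bulge cells, was higher in untreated Lgr5-positive than Lgr5-negative cells (1.65 ± 0.17) and rose with vismodegib in Lgr5-negative cells (2.15 ± 0.17). E-cadherin (Cdh1) was lower in untreated Lgr5-positive cells (−0.65 ± 0.11) and rose there with vismodegib (0.56 ± 0.11). A list of 17 markers of macrophages, dendritic and Langerhans cells (called the macrophage list here) also differed between groups. Their summed signal lay between 2469 and 3238 in untreated Lgr5-negative, 959.3 and 1100 in untreated Lgr5-positive, 4981 and 5782 in vismodegib Lgr5-negative and 7923 and 10600 in vismodegib Lgr5-positive arrays. In bulk samples fewer cells of a type and less RNA per cell cannot be told apart. Of 7 tested T cell markers, 2 (Cd3e and Thy1) were called lower and 0 higher in untreated Lgr5-positive than Lgr5-negative cells (10.9% and 6.21% of all genes). Of 9 mast cell and neutrophil markers, 8 were on the array and 3 were tested, and Elane, Cpa3, Mcpt4, Kit and Cxcr2 stayed dim.

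Protease inhibitors hold secreted and intracellular proteases in check. Serpins present a loop that a protease cleaves, after which the serpin changes shape and traps the enzyme, and some serpins have lost this activity and serve as chaperones or carriers. Clade A serpins are mostly secreted, whereas clade B serpins act mainly inside cells and many are typical of stratified epithelium. TIMPs bind matrix metalloproteinases, WAP domain proteins such as Slpi block neutrophil serine proteases, Kunitz proteins of the Spint family control membrane-bound serine proteases of epithelium, and cystatins inhibit cathepsins of the papain type. In skin, the balance between proteases and inhibitors governs shedding of the cornified layer, wound repair and remodelling of the matrix around follicles.

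Across the members, as over all genes tested, the largest set of differences lay between the populations of untreated mice. There, 5 inhibitors were higher in Lgr5-positive than in Lgr5-negative cells (Serpina3n, Serpina9, Serpina3i, Timp2 and Timp3) and 3 were lower (Serpinb2, Serpinb3a and Serpinb5), where 6.21% of all genes tested were called higher and 10.9% lower. The members called were 19.5% of those tested, against 17.1% of all genes. Serpinb3a passed the filter only through the group where it is high, and without it 7 of 40 members were called (17.5%), of which 2 were lower. Vismodegib lowered 2 members (Serpina3n and Serpina9, background 4.51%) and raised 2 (Serpinb5 and Serpinb8, background 6.37%) in Lgr5-positive cells, where 10.9% of all genes changed in either direction. In Lgr5-negative cells it lowered 2, again Serpina3n and Serpina9 (background 2.06%), and raised 0 (background 1.26%), with 3.32% of all genes called in either direction. After vismodegib, limma called 0 members different between populations, against 0.472% of all genes (0.34% higher and 0.132% lower). An unadjusted p under 0.05 was found for 5 of 41 members, and for 12.1% of all genes, so the members were near the general share. The difference between the drug effects of the populations passed for 1 member, Serpina9, against 1.4% of all genes (0.993% higher and 0.41% lower). The arrays of the compared groups did not overlap for 23 of 41 members under vismodegib in Lgr5-positive cells (54.8% of all genes), 18 in Lgr5-negative cells (51.4%), 26 between untreated populations (64.6%) and 14 between treated ones (43.7%). In total 9 members passed in at least 1 comparison and 32 in none, with Serpinb3a among the 9. The matching share over all genes was not computed. The untreated population difference alone was called for 17.1% of all genes, so the 9 are not set apart from genes in general. The comparisons share groups, since the untreated Lgr5-positive arrays enter both the drug effect in these cells and the untreated population difference.

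**Figure D1:**
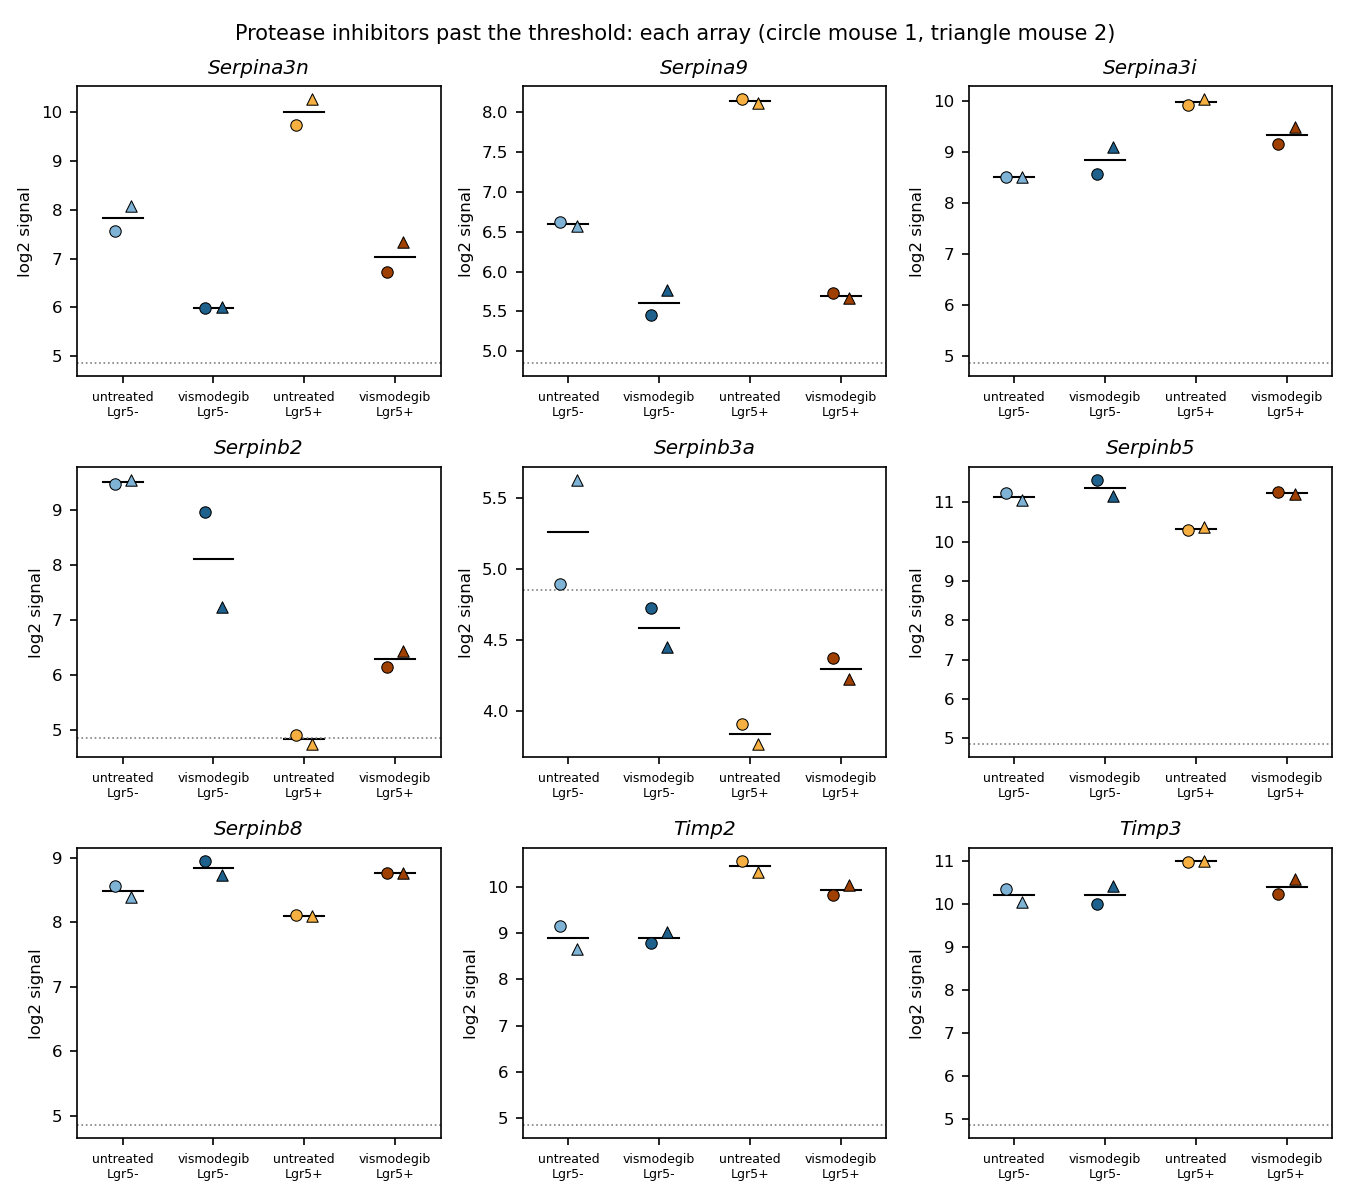
Log2 signal of the 9 protease inhibitors past the threshold in at least 1 comparison, 1 panel a gene, with the 4 groups on the x axis, a point for each array (circle mouse 1, triangle mouse 2), a bar for the mean and a dotted line at the floor of 4.85. The y axes differ between panels and do not start at 0. The untreated Lgr5-positive arrays stand highest for Serpina3n, Serpina9, Serpina3i, Timp2 and Timp3 and lowest for the 4 clade B genes.

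The 3 secreted clade A serpins Serpina3n, Serpina9 and Serpina3i of the gene cluster on chromosome 12 were higher in untreated Lgr5-positive cells, and vismodegib lowered 2 of them in both populations. Serpina3n is a mouse counterpart of antichymotrypsin, an acute phase inhibitor of granule proteases such as cathepsin G and granzyme B. It read 7.57 and 8.09 in untreated Lgr5-negative, 9.75 and 10.27 in untreated Lgr5-positive, 5.992 and 5.997 in vismodegib Lgr5-negative and 6.73 and 7.34 in vismodegib Lgr5-positive arrays. No group overlapped another, and the untreated Lgr5-positive arrays were highest. It stood 4.53-fold higher in Lgr5-positive than in Lgr5-negative cells of untreated mice (2.18 ± 0.27, adjusted p = 0.00267). Vismodegib lowered it 7.87-fold in Lgr5-positive (−2.98 ± 0.27, adjusted p = 0.000784) and 3.56-fold in Lgr5-negative cells (−1.83 ± 0.27, adjusted p = 0.0165). The call in Lgr5-negative cells did not pass without untreated Lgr5-negative array 2 (adjusted p = 0.138) or without either vismodegib array of these cells (0.0523 and 0.0604). After treatment its Lgr5-positive arrays still read above the Lgr5-negative ones, by 1.04 ± 0.27, but the difference did not pass (adjusted p = 0.191).

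Serpina9, also called centerin and best known from germinal centre B cells, gave 6.62 and 6.57 in untreated Lgr5-negative and 8.16 and 8.11 in untreated Lgr5-positive arrays. After vismodegib it gave 5.45 and 5.77 in Lgr5-negative and 5.73 and 5.67 in Lgr5-positive arrays. Only the untreated Lgr5-positive arrays exceeded 8, and the populations of treated mice overlapped. The population difference was 1.54 ± 0.13 in untreated mice (2.91-fold, adjusted p = 0.000927) and 0.09 ± 0.13 after vismodegib (95% interval −0.23 to 0.40, adjusted p = 0.838). Vismodegib lowered Serpina9 5.41-fold in Lgr5-positive (−2.44 ± 0.13, adjusted p = 0.000184) and 1.97-fold in Lgr5-negative cells (−0.98 ± 0.13, adjusted p = 0.0129). The drop was larger in Lgr5-positive cells by −1.46 ± 0.19 (adjusted p = 0.0209). That difference did not pass without either untreated Lgr5-negative array (adjusted p = 0.0722 and 0.122) or either vismodegib Lgr5-positive array (0.0875 and 0.0725). The effect in Lgr5-negative cells alone did not pass without either untreated array of these cells (0.0808 and 0.114) or when only the 4 arrays compared were fitted (0.0561).

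Serpina3i, a member of the same expanded mouse Serpina3 group as Serpina3n, read 8.513 and 8.503 in untreated Lgr5-negative and 9.93 and 10.04 in untreated Lgr5-positive arrays, and 8.58 and 9.11 against 9.16 and 9.50 after vismodegib. The Lgr5-positive arrays lay above the Lgr5-negative ones in each treatment. The untreated difference was 2.78-fold (1.48 ± 0.19, adjusted p = 0.00344). After vismodegib it was 0.49 ± 0.19 (adjusted p = 0.376). The drug effect was −0.66 ± 0.19 in Lgr5-positive cells (adjusted p = 0.0737) and 0.33 ± 0.19 in Lgr5-negative cells (adjusted p = 0.41), and the difference between these effects did not pass (−0.99 ± 0.27, adjusted p = 0.127). The vismodegib Lgr5-negative arrays held the widest spread of this gene (standard deviation 0.37). Fits without either of them drop that spread, so their p-values are not given. Genes of the Serpina3 group are close copies, so a probe set may read more than 1 of them.

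The remaining 5 tested clade A serpins moved little, with a range over the 8 arrays between 0.14 and 0.71. Serpina11 read between 6.16 and 6.87 and Serpina12, also called vaspin, between 5.36 and 5.59. Serpina10 and the liver antitrypsin genes Serpina1b and Serpina1d made up the rest. Another 7 clade A genes were too dim to test (Serpina1a, Serpina1c, Serpina1f, Serpina3a, Serpina4-ps1, Serpina5 and Serpina6). Over the 8 tested members of the clade, the median drug effect was −0.37 in Lgr5-positive and −0.04 in Lgr5-negative cells, against −0.01 and 0.01 (medians of all genes tested).

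The 250 bases before the RefSeq start sites of Serpina3i (GRCm38.p6, chr12:104262872-104263121, plus strand) and Serpina3n (GRCm38.p6, chr12:104406458-104406707, plus strand) are shown because both genes were high in the same arrays. In a global alignment they were identical in 173 of 278 columns (62.2%). Capitals mark TTCNNNGAA, a motif of STAT factors searched on both strands. It is in 7.02% of 32851 promoter windows of that length and in 7 of the 55 windows of members (12.7%).
Serpina3i: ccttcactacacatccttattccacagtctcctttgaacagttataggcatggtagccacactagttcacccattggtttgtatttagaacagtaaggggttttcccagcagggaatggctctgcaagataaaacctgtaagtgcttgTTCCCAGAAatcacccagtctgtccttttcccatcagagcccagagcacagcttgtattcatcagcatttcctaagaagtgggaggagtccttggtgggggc
Serpina3n: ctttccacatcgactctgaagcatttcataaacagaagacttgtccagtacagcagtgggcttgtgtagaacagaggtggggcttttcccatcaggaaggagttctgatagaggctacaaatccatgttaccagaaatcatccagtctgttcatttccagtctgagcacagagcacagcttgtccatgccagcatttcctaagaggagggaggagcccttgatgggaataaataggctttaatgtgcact
The motif lay 102 bases before the start of Serpina3i, and these letters were not in the window of Serpina3n. The binding motif GACCACCCA of GLI factors, which carry the Hedgehog signal, was in 0 of the 55 member windows (of 48 members) and in 0.225% of all windows.

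Among clade B serpins, 3 of 9 tested members were lower in Lgr5-positive than in Lgr5-negative cells of untreated mice, where 10.9% of all genes were called lower. Of these, Serpinb3a passed the dim filter only through the untreated Lgr5-negative arrays and so had to differ. Without it, 2 of 8 members passed (Serpinb2 and Serpinb5), all 8 had values below 0 (47.2% of all genes tested did), and the median was −0.54 against 0.02 for all genes. Serpinb9 (−0.03) and Serpinb11 (−0.03) lay at about 0. Serpinb2, the plasminogen activator inhibitor of keratinocytes and macrophages, gave 9.46 and 9.54 in untreated Lgr5-negative but 4.92 and 4.75 in untreated Lgr5-positive arrays, the latter at the floor of 4.85. After vismodegib it gave 8.96 and 7.24 in Lgr5-negative and 6.15 and 6.44 in Lgr5-positive arrays, so the groups drew nearer without overlapping. It was lower in Lgr5-positive than in Lgr5-negative cells of untreated mice (−4.67 ± 0.46, adjusted p = 0.00149). Since the low group's mean lies under the floor, the fold is a bound, at least 24.5-fold with the lower array set to the floor. Of the macrophage list, 6 of 16 tested markers were also lower in these cells and 0 higher (10.9% and 6.21% of all genes). Its part in the Serpinb2 value was not tested.

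For Serpinb2 the drug effect was 1.47 ± 0.46 in Lgr5-positive cells (adjusted p = 0.0913) and −1.40 ± 0.46 in Lgr5-negative cells (adjusted p = 0.159), and neither passed. The difference between the effects was 2.86 ± 0.66 (adjusted p = 0.085). Both vismodegib Lgr5-negative arrays, which lie far apart for this gene, bear on these values. Without the first of them the effect in Lgr5-negative cells was −2.26 and the difference between effects 3.72. Without the second, the latter was 2.00 and the treated population difference −2.66 (from −1.80). Without either one the effect in Lgr5-positive cells was an unchanged 1.47. Such a fit drops the spread between these 2 arrays (standard deviation 1.22, against 0.05, 0.12 and 0.205 in the other groups), so its p-values are not given. The effect in Lgr5-positive cells passed when only the 4 arrays compared were fitted (adjusted p = 0.00982), a fit that also leaves this spread out.

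Serpinb5 encodes maspin, an epithelial clade B protein without known protease inhibition. It read 11.23 and 11.05 in untreated Lgr5-negative, 10.29 and 10.37 in untreated Lgr5-positive, 11.56 and 11.17 in vismodegib Lgr5-negative and 11.25 and 11.21 in vismodegib Lgr5-positive arrays. Only the untreated Lgr5-positive arrays lay under 11. Maspin was 1.75-fold lower there than in Lgr5-negative cells (−0.81 ± 0.15, adjusted p = 0.013) and rose 1.87-fold with vismodegib in Lgr5-positive cells (0.90 ± 0.15, adjusted p = 0.0108), while the effect in Lgr5-negative cells was 0.23 ± 0.15 (adjusted p = 0.486). A second probe set gave −0.94 and 1.43 for the first and second of these differences. The rise did not pass without either vismodegib Lgr5-positive array (0.0777 and 0.0584), nor the population difference without either untreated Lgr5-negative array (0.0858 and 0.0654) or without untreated Lgr5-positive array 1 (0.0517).

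Serpinb8, an inhibitor of furin and related proteases, gave 8.57 and 8.40 in untreated Lgr5-negative, 8.11 and 8.09 in untreated Lgr5-positive, 8.95 and 8.73 in vismodegib Lgr5-negative and 8.76 and 8.77 in vismodegib Lgr5-positive arrays. The treated arrays of both populations lay above the untreated ones. In Lgr5-positive cells the rise was 1.59-fold (0.67 ± 0.12, adjusted p = 0.0158, with 1.03 by its second probe set), and in Lgr5-negative cells the value was 0.36 ± 0.12 (adjusted p = 0.18). The rise did not pass without untreated Lgr5-positive array 2 (0.0587) or either vismodegib Lgr5-positive array (0.0957 and 0.0843). The macrophage list moved with both of these rises, since 14 of its 16 tested markers rose and 0 fell with vismodegib in Lgr5-positive cells (median 2.47), and its part in them was not tested. Cdh1 of the keratinocyte list rose in the same cells (adjusted p = 0.016), and its part was not tested either.

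Serpinb3a, a mouse counterpart of the squamous cell carcinoma antigens, was dim. It gave 4.90 and 5.63 in untreated Lgr5-negative, 3.91 and 3.77 in untreated Lgr5-positive, 4.72 and 4.45 in vismodegib Lgr5-negative and 4.37 and 4.23 in vismodegib Lgr5-positive arrays. It passed the filter only through the untreated Lgr5-negative arrays, so its lower value in untreated Lgr5-positive cells (−1.43 ± 0.23, adjusted p = 0.00756) is given as a description. Its 2 other probe sets gave −1.04 and −1.49, and both are of a type that can bind related transcripts.

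**Figure D2:**
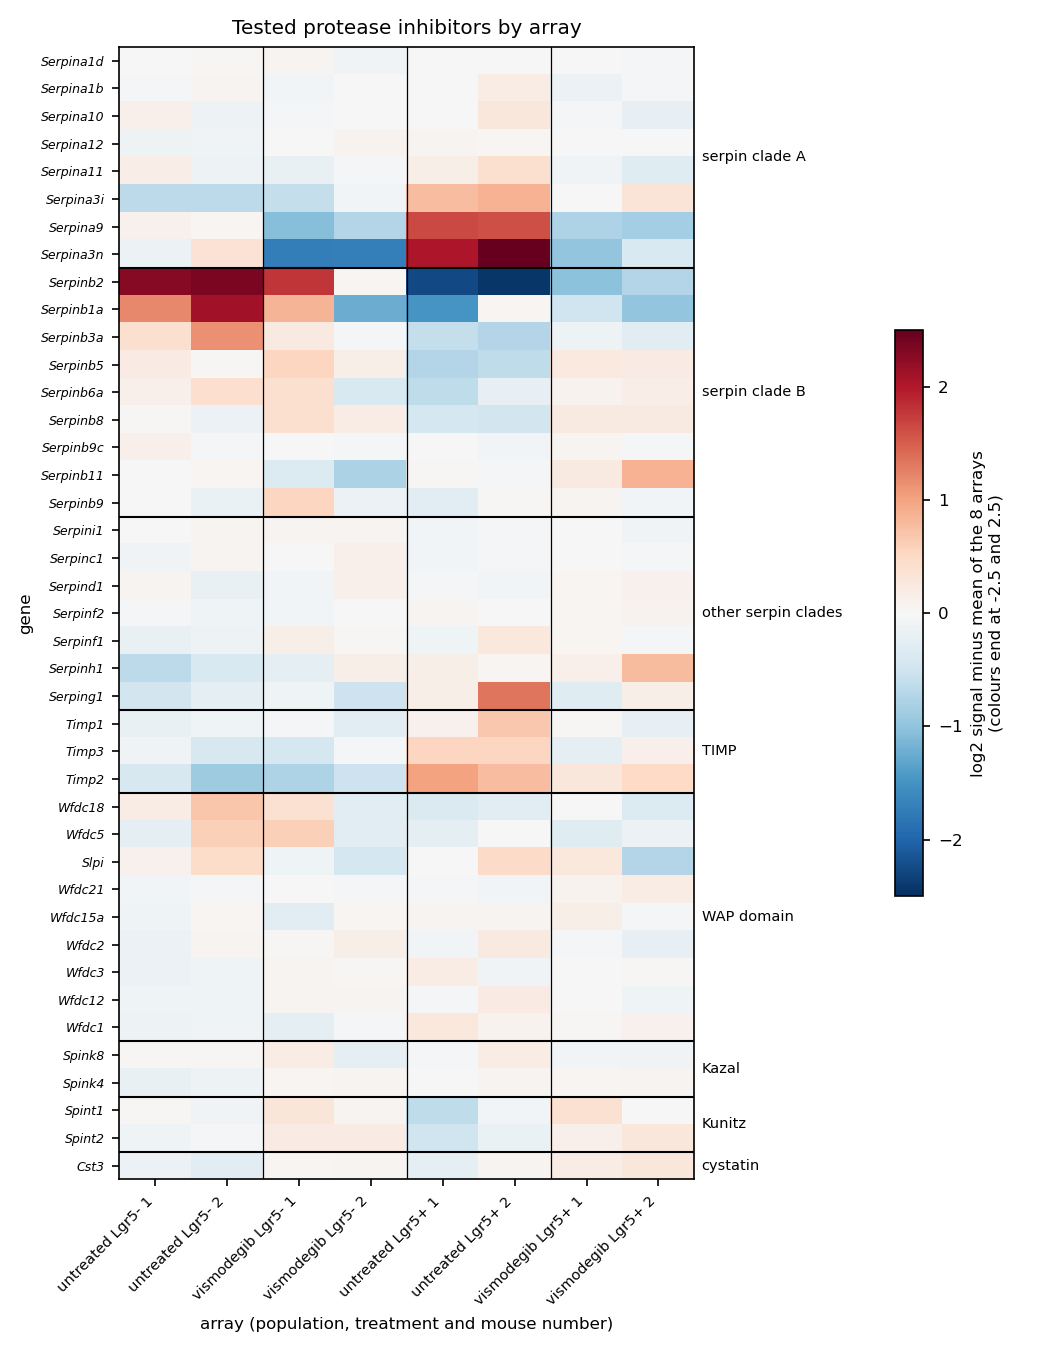
Log2 signal of the 41 tested members minus each gene's mean over the 8 arrays, with genes in rows by family, arrays in columns by group, red for above and blue for below the mean, and colours that end at −2.5 and 2.5. The strongest colours are in clade A (Serpina3n, Serpina9) and clade B (Serpinb2, Serpinb1a), while WAP domain, Kazal and cystatin rows are pale.

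Of the clade B serpins that passed in no comparison, Serpinb6a, an inhibitor of cathepsin G, read between 8.25 and 9.31. It was at −0.70 ± 0.26 for Lgr5-positive minus Lgr5-negative cells of untreated mice (adjusted p = 0.111). Serpinb11 read between 5.71 and 7.37. Its Lgr5-positive arrays (6.73 and 7.37) lay above its Lgr5-negative ones (6.16 and 5.71) after vismodegib, by 1.11 ± 0.23 (adjusted p = 0.114), and its untreated arrays spanned only 6.46 to 6.54. Serpinb1a, which blocks neutrophil elastase and was picked after its values were seen, varied widely within groups. It gave 7.69 and 8.59 in untreated Lgr5-negative, 5.01 and 6.55 in untreated Lgr5-positive, 7.35 and 5.25 in vismodegib Lgr5-negative and 5.983 and 5.502 in vismodegib Lgr5-positive arrays. The untreated difference of −2.36 ± 0.73 did not pass (adjusted p = 0.0644), but it did with the mouse as a block (0.00749) and in several other fits given in the closing section. Serpinb9, an inhibitor of granzyme B, and Serpinb9c stayed near the floor, and 8 more clade B genes were too dim to test (Serpinb12, Serpinb1b, Serpinb6b, Serpinb6c, Serpinb7, Serpinb9b, Serpinb9d and Serpinb9g).

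The tested clade B genes come from gene clusters on chromosome 1 (Serpinb5, Serpinb3a, Serpinb11, Serpinb2 and Serpinb8, in this order) and chromosome 13 (Serpinb1a, Serpinb9, Serpinb9c and Serpinb6a). The 4 on chromosome 1 that passed in a comparison are shown by the 250 bases before a RefSeq start site, because they are neighbours. Serpinb8 is among them for its rise with vismodegib, since its untreated population difference did not pass (−0.38 ± 0.12, adjusted p = 0.0764). Capitals mark matches to TGANTCA, which AP-1 factors are known to bind, and to TATAAA, the core promoter element of that name, each searched on both strands. The windows are, on GRCm38.p6, chr1:106860925-106861174 (plus strand) for Serpinb5, chr1:107052304-107052553 (minus strand) for Serpinb3a, chr1:107511173-107511422 (plus strand, the first of its 2 listed start sites) for Serpinb2 and chr1:107589756-107590005 (plus strand) for Serpinb8.
Serpinb5: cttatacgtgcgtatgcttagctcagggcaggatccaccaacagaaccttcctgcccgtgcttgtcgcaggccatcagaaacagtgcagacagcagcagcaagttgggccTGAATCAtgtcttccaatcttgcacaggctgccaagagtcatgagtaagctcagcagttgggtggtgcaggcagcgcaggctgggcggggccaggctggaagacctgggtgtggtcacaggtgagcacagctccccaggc
Serpinb3a: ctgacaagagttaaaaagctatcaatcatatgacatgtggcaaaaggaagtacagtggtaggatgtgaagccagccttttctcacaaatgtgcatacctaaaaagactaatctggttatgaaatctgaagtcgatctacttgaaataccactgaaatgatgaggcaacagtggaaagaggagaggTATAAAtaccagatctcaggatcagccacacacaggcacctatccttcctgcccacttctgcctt
Serpinb2: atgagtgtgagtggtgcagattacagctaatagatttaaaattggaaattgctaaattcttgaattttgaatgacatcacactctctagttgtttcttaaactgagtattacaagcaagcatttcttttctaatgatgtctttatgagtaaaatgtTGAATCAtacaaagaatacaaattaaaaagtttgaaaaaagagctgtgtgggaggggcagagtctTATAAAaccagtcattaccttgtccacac
Serpinb8: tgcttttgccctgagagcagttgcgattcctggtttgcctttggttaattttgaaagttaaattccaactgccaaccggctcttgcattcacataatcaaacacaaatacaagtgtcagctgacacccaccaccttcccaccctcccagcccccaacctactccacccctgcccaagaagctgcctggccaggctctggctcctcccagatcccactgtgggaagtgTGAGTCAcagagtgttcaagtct
TGANTCA lay 140 bases before the start of Serpinb5, 94 before that of Serpinb2 and 23 before that of Serpinb8. Over all members it was in 11 of 55 windows (20%), against 6.75% of all 32851 windows. The 2 windows of Serpinb2 overlap and hold the same match, and by gene it was in 10 of 48 members. TATAAA lay 65 bases before the start of Serpinb3a and 29 before that of Serpinb2. It was in 9 of the 55 member windows (16.4%) and in 12.4% of all windows. Such a match describes the letters and does not show that a factor binds.

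Serpins of other clades gave no call among 7 tested genes, and Serpini2 was too dim to test. Serpinh1, the collagen chaperone of the endoplasmic reticulum, read 9.57 and 9.84 in untreated Lgr5-negative and 10.36 and 10.28 in untreated Lgr5-positive arrays (0.62 ± 0.23, adjusted p = 0.114), and this difference passed with the mouse as a block (0.0373) and with only the 4 arrays compared (0.0433). Serpinf1, the secreted pigment epithelium-derived factor, read between 7.36 and 7.80. Its probe sets disagreed, since the one used gave −0.07 for vismodegib in Lgr5-positive cells and the dimmer one −1.10, and the mean of both passed. Serping1, the inhibitor of the first complement component, was picked after its values were seen. It gave 6.69 and 7.87 in untreated Lgr5-positive arrays against 6.07 and 6.30 in Lgr5-negative arrays of the same mice. Its difference was 1.10 ± 0.36 (adjusted p = 0.0782, or 0.0408 with the mouse as a block), and 1.69 without untreated Lgr5-positive array 1. The blood protease inhibitors Serpinc1, Serpind1 and Serpinf2 and the neuronal Serpini1 had population and drug values between −0.12 and 0.13.

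Timp2 and Timp3, secreted inhibitors of metalloproteinases, were higher in Lgr5-positive cells of untreated mice. Timp2 read 9.15 and 8.65 in untreated Lgr5-negative, 10.55 and 10.33 in untreated Lgr5-positive, 8.78 and 9.02 in vismodegib Lgr5-negative and 9.83 and 10.05 in vismodegib Lgr5-positive arrays. The Lgr5-positive arrays lay above all Lgr5-negative arrays in each treatment. The difference was 2.91-fold in untreated mice (1.54 ± 0.19, adjusted p = 0.00286), and the 4 other probe sets of the gene gave 1.44 to 1.69. After vismodegib it was 2.06-fold (1.04 ± 0.19, 95% interval 0.59 to 1.49, adjusted p = 0.0866). It passed with the mouse as a block (adjusted p = 0.0382) and as the mean of its probe sets (1.08, 0.0338). The drug effect was −0.50 ± 0.19 in Lgr5-positive (adjusted p = 0.155) and 0.00 ± 0.19 in Lgr5-negative cells.

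Timp3 gave 10.37 and 10.05 in untreated Lgr5-negative, 10.99 and 11.00 in untreated Lgr5-positive, 10.01 and 10.43 in vismodegib Lgr5-negative and 10.23 and 10.58 in vismodegib Lgr5-positive arrays. The untreated Lgr5-positive arrays were highest and the other groups overlapped. Its untreated population difference was 1.73-fold (0.79 ± 0.19, adjusted p = 0.0309, with 0.66 to 0.97 by the other probe sets), and it did not pass without any single one of the 4 arrays compared (adjusted p between 0.0634 and 0.199). After vismodegib the value was 0.18 ± 0.19 (adjusted p = 0.751), and the drug effect in Lgr5-positive cells was −0.59 ± 0.19 (adjusted p = 0.0963). Timp1 read between 5.35 and 6.30, with 0.52 ± 0.20 for the untreated population difference (adjusted p = 0.117). All 3 tested dermal fibroblast markers lay above 0 for the untreated population difference (median 0.57), as did 52.8% of all genes. Of these, 1 was called higher, Col1a1 (0.88 ± 0.17), where 6.21% of all genes were. Pdgfra, Lum, Dpt and Col3a1 stayed dim. The summed signal of the list lay between 361.6 and 402.1 in untreated Lgr5-positive and 265.1 and 276.3 in untreated Lgr5-negative arrays. The part of such cells in the TIMP values was not tested.

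**Figure D3:**
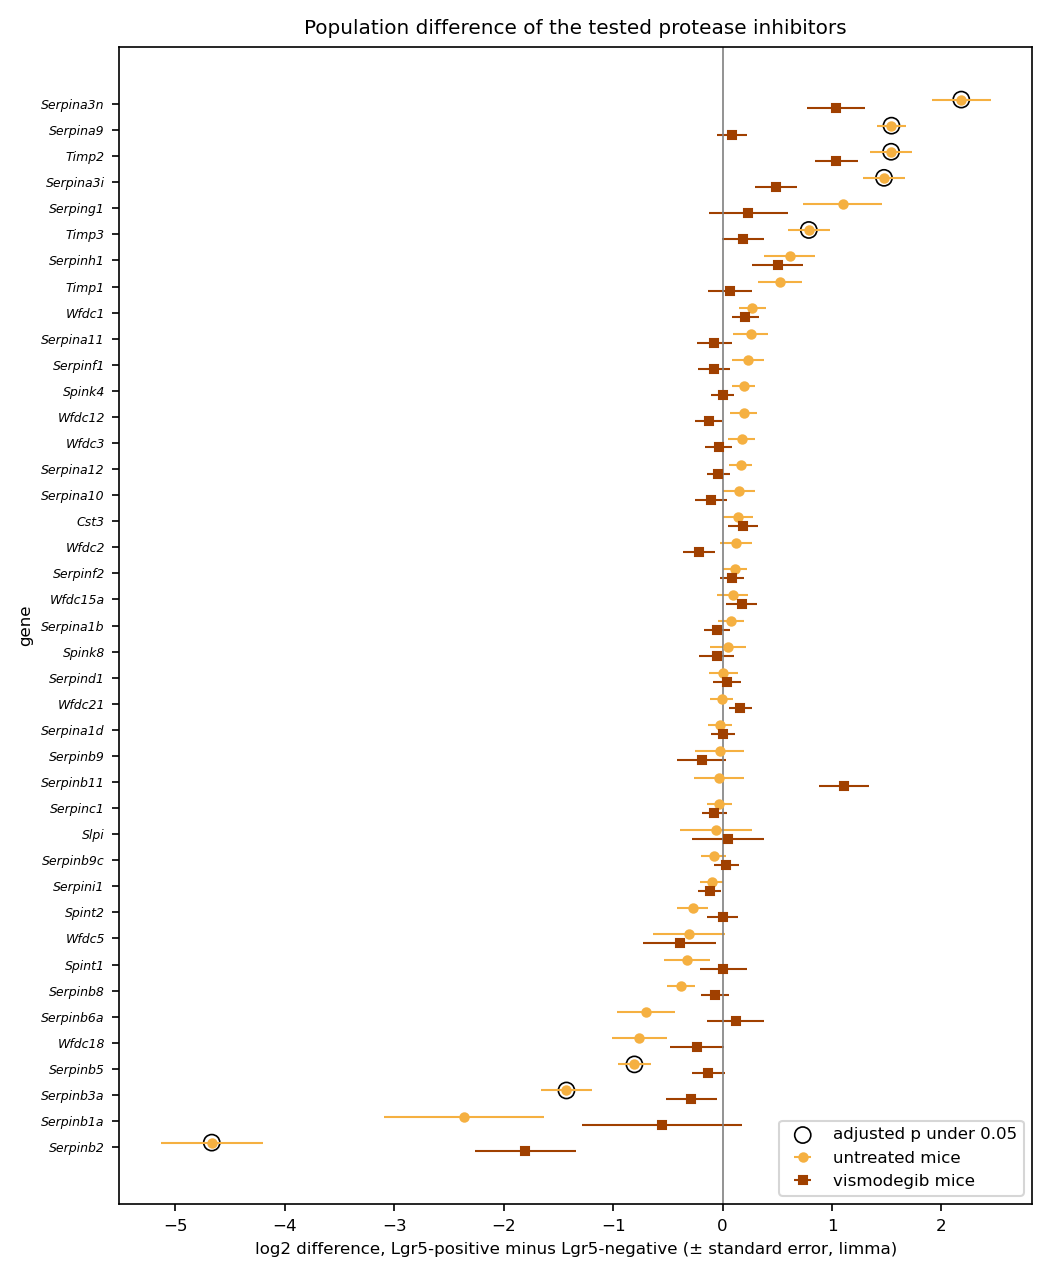
Log2 difference of Lgr5-positive minus Lgr5-negative cells (x axis, bars for the standard error from limma) for the 41 tested members (y axis), in untreated mice (circles) and vismodegib mice (squares), with rings around adjusted p under 0.05. Serpinb2 lies lowest at −4.67, with its low group at the floor, and Serpina3n highest at 2.18 in untreated mice, and 0 members are ringed after vismodegib.

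None of the 9 tested WAP domain members passed. Slpi, which blocks leukocyte elastase, gave 7.20 and 7.55 in untreated Lgr5-negative, 7.07 and 7.56 in untreated Lgr5-positive, 6.97 and 6.64 in vismodegib Lgr5-negative and 7.35 and 6.35 in vismodegib Lgr5-positive arrays. Its drug effect was −0.57 ± 0.33 in Lgr5-negative cells (adjusted p = 0.408) and −0.46 ± 0.33 in Lgr5-positive cells (0.458), within a spread that makes such shifts undetectable here. Wfdc1 read between 7.56 and 8.06. Wfdc18, picked after its values were seen, was at −0.76 ± 0.25 for Lgr5-positive minus Lgr5-negative cells of untreated mice (adjusted p = 0.0766). It passed with the mouse as a block (0.0219). Over the arrays the 9 members spanned between 0.25 (Wfdc21) and 1.20 (Slpi), with Wfdc2, Wfdc3, Wfdc5, Wfdc12 and Wfdc15a in between, while Wfdc15b and Wfdc6a were too dim to test.

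Spint1 and Spint2 are Kunitz inhibitors of the membrane proteases matriptase and hepsin. Both untreated Lgr5-positive arrays lay below all other arrays for Spint2, but only the first of them did for Spint1. Spint2 gave 10.85 and 10.94 in untreated Lgr5-negative, 10.45 and 10.79 in untreated Lgr5-positive, 11.16 and 11.16 in vismodegib Lgr5-negative and 11.08 and 11.24 in vismodegib Lgr5-positive arrays. All treated arrays lay above all untreated arrays. The drug effect in Lgr5-positive cells was 0.54 ± 0.14 and just missed the threshold (adjusted p = 0.0509). It passed in 5 of the 9 alternative fits (adjusted p between 0.028 and 0.0496). Spint1 gave 8.34 and 8.21 in untreated Lgr5-negative, 7.67 and 8.23 in untreated Lgr5-positive and 8.67 and 8.30 in vismodegib Lgr5-positive arrays. Its drug effect in Lgr5-positive cells was 0.53 ± 0.21 (adjusted p = 0.167). Cystatin C (Cst3), the main secreted inhibitor of cathepsins, read between 11.16 and 11.74, with 0.32 ± 0.14 for vismodegib in Lgr5-positive (adjusted p = 0.205) and 0.27 ± 0.14 in Lgr5-negative cells (0.335). Of the Kazal members, Spink4 read between 5.65 and 5.90 and Spink8 between 4.52 and 4.95, and Spink1 and Spink10 were too dim to test.

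**Figure D4:**
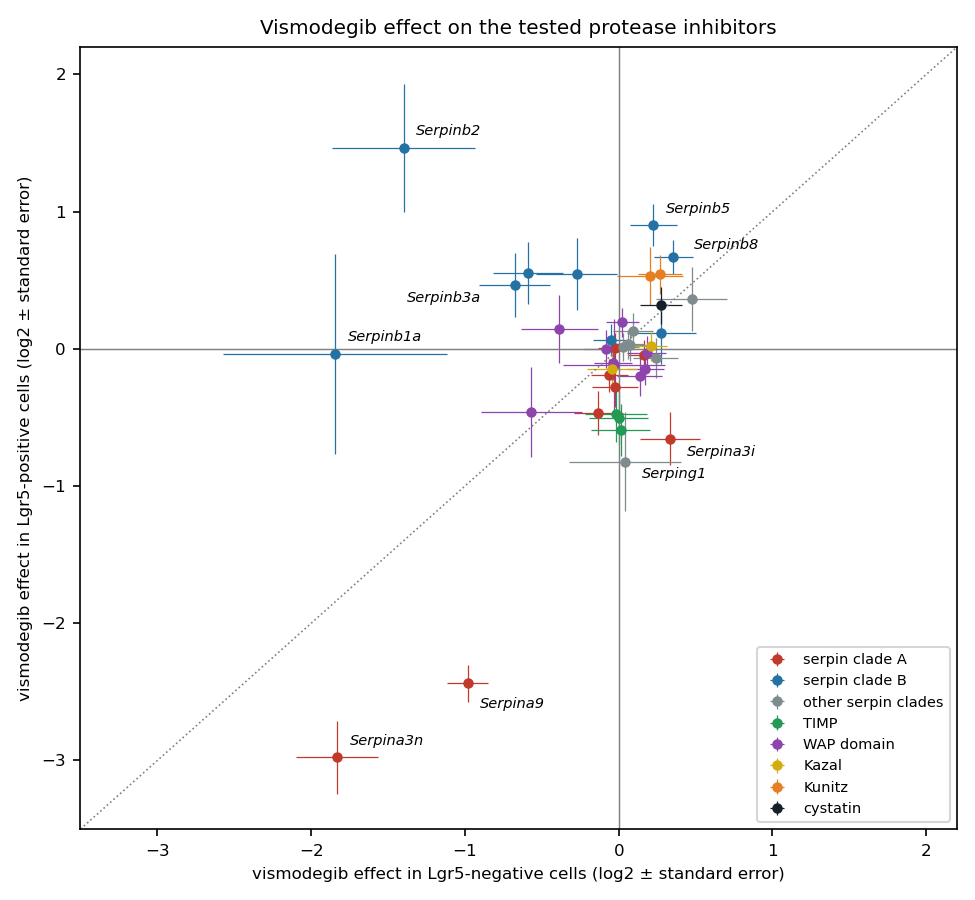
Vismodegib effect (log2 ± standard error from limma) on the 41 tested members in Lgr5-negative cells (x axis) and in Lgr5-positive cells (y axis), coloured by family, with a dotted line where both effects are equal. Serpina3n (−1.83 and −2.98) and Serpina9 (−0.98 and −2.44) lie low on both axes, and Serpinb2 lies at −1.40 and 1.47.

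Proteases that these inhibitors may act on were followed in fixed lists, which also hold related genes that are not proteases or not their targets. The counts stand beside the shares of all genes called higher and lower (6.21% and 10.9% between untreated populations, 6.37% and 4.51% for vismodegib in Lgr5-positive cells, 1.26% and 2.06% in Lgr5-negative cells). Of the macrophage list, 14 of 16 markers rose with vismodegib in Lgr5-positive cells and 6 were lower in untreated Lgr5-positive cells, in the same arrays as the protease values below, and its part in them was not tested. Of 19 tested serine proteases of epithelium, 9 were lower and 0 higher in Lgr5-positive cells of untreated mice (median −0.77 against 0.02 for all genes). Among them were the transmembrane protease Tmprss4 (−3.46 ± 0.21), Tmprss11e (−2.77 ± 0.47) and the kallikreins Klk8 (−2.32 ± 0.22) and Klk7 (−2.25 ± 0.61). Both untreated Lgr5-positive arrays of Tmprss11e (4.44 and 4.55) lay under the floor of 4.85, so its difference is not a measured size. With vismodegib, 5 of the 19 rose in Lgr5-positive cells, such as Htra1 (2.83 ± 0.51) and Prss23 (2.81 ± 0.41), and 2 fell. In Lgr5-negative cells 0 rose and 1 fell (Prss12, −1.26 ± 0.20). Matriptase (St14), the target of the Spint proteins, differed by 0.26 ± 0.13 with vismodegib in Lgr5-positive cells (adjusted p = 0.267).

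Among 10 tested genes of a list of plasminogen activation and coagulation, 3 were lower and 0 higher in untreated Lgr5-positive cells. They were the coagulation initiator tissue factor (F3, −3.0 ± 0.46), thrombomodulin (Thbd, −2.72 ± 0.32) and the plasminogen receptor subunit Anxa2 (−0.52 ± 0.13). Urokinase (Plau), the target of Serpinb2, differed by −0.63 ± 0.20 (adjusted p = 0.0677). Plau, its receptor Plaur and tissue plasminogen activator (Plat) passed in no comparison. With vismodegib, Thbd (2.05 ± 0.32), the thrombin receptor F2r (1.22 ± 0.25) and Anxa2 (0.59 ± 0.13) rose in Lgr5-positive cells. F3 fell in Lgr5-negative cells (−2.63 ± 0.46).

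A list of metalloproteinases was followed as TIMP targets, although TIMPs are not known to inhibit all of them, Adam8 for one. Of 19 tested, 2 were higher and 6 lower in untreated Lgr5-positive cells, in which Timp2 and Timp3 were higher. Adam8 was among those 6 and among those that vismodegib raised in these cells. Gelatinase A (Mmp2) was at −2.30 ± 0.16 and stromelysin 3 (Mmp11) at 1.38 ± 0.21. With vismodegib 7 rose and 3 fell in Lgr5-positive cells, including Mmp19 (2.92 ± 0.47) and Adamts1 (−1.65 ± 0.18), and 0 rose and 2 fell in Lgr5-negative cells. After treatment limma called 0 of these different between populations, where 0.472% of all genes were called, and Mmp19 stood at 2.06 ± 0.47 (adjusted p = 0.146). Of 12 tested genes of a list of cathepsins and legumain (Lgmn), 3 were higher and 3 lower in untreated Lgr5-positive cells. The lower ones included cathepsin S (Ctss, −4.03 ± 0.58), which is abundant in macrophages, and Ctsd, which like Ctsa is not of the papain type. Vismodegib raised 4 in Lgr5-positive cells, among them Ctss (5.62 ± 0.58) and Lgmn (0.914 ± 0.235). The untreated Lgr5-positive arrays of Ctss lay far apart (6.60 and 4.52, the second under the floor), so both of its differences are rough. A list of granule serine proteases, among them targets of Serpina3n, Serpinb6a and Slpi, also held perforin (Prf1), which is not a protease. This list gave 0 calls among 9 tested genes in each of the 5 contrasts, and Elane, Ctsg and Gzma stayed dim.

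Of 21 other tested protease inhibitors, 2 rose with vismodegib in Lgr5-positive cells, the hyaluronan-binding Itih5 (1.45 ± 0.37) and Kazald1 (1.43 ± 0.23), and 0 fell. The matrix proteoglycan Spock2 was higher in Lgr5-positive cells both in untreated (1.74 ± 0.21) and in vismodegib mice (1.70 ± 0.21, adjusted p = 0.0264), and the stefin Stfa3 was lower in untreated Lgr5-positive cells (−3.19 ± 0.61).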

How the data were processed

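RNA from cells of 8 sorted populations was amplified and read on 8 Affymetrix mouse arrays. The deposited values are log2 signals from RMA, which the submitters' processing notes name without a version. RMA corrects background, sets all arrays to a common distribution by quantiles and summarises probe sets, so a shift of all genes would be lost. Array medians lay between 6.13 and 6.20, and deposited values were used unchanged. Symbols came from the platform annotation (28898 of 45141 probe sets had 1 symbol, 551 several).

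The highest-mean probe set of each gene was kept. All 8 arrays entered 1 model of 4 group means in limma 3.58.1 (R 4.3.3, two-sided, 4 residual and 3.53 prior degrees of freedom, threshold 0.05), with 5 contrasts. The fitting script was tested on simulated data. The titles name the mouse, so both populations of a mouse are pairs. In deviations from group means these pairs correlated across genes at 0.142 and 0.211. Members past the threshold and the 2 others of each family with the highest mean are named, further ones where stated. Members and lists were chosen with earlier results of these data known. Promoter sequences are from a RefSeq table (GRCm38.p6) that matched 48 of the 61 members by symbol, and Serpina9 was not among them. Alternatives were no filter, a filter at the median, the mean of probe sets, cyclic loess, an intensity trend, weights per array, a fit of the compared arrays alone, a fixed or random block for the mouse, and leaving out each array.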

Additional observations from a re-analysis of the deposited data

Results flagged for a closer look

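The vismodegib effect on Serpina9 differed between the populations by a test of the difference itself. It was −2.44 in Lgr5-positive and −0.98 in Lgr5-negative cells, a difference of −1.46 ± 0.19 (limma, adjusted p = 0.0209). All 4 treated arrays lay below all 4 untreated arrays. The adjusted p lay between 0.0151 and 0.0283 over the alternative fits and between 0.0281 and 0.122 when 1 array was left out. No other tested member passed this test. Groups of 2 arrays are too small to single out an array.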

How the results depend on the processing

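Of 15 calls of members, 14 passed under every processing alternative that gave them a value, 8 also without any single array, and 0 turned direction. Serpinb3a is among the calls counted as passing, although it passed the dim filter only through the untreated Lgr5-negative arrays and so had to differ. Its part in these counts therefore says nothing about stability. It had no value with the filter at the median or the mean of probe sets, where it was too dim. The difference of effects cannot be fitted with only the arrays of 1 comparison. The number of members called was 4 for vismodegib in Lgr5-positive cells (4 to 6 over the alternatives, 2 to 6 leaving out 1 array), 2 in Lgr5-negative cells (1 with only the 4 arrays compared, 0 to 2 leaving out 1 array) and 8 between untreated populations (8 to 12, and 6 to 11 leaving out 1 array). Between treated populations it was 0, but 1 with the mean of probe sets and 1 with the mouse as a block (Timp2 in both), and 0 to 1 leaving out 1 array. For the difference of effects it was 1, and 0 to 2 leaving out 1 array. With the mouse as a replicate block, 12 members passed between untreated populations. The added ones were Serpinb1a, Serping1, Serpinh1 and Wfdc18, and the block changed no other call besides Timp2. The number of all genes called between untreated populations under the alternative fits is not given here. The rise from 8 to 12 is therefore not read as particular to the members. Serpinb1a also passed with a filter at the median (0.0441), the mean of probe sets (0.0191), array weights (0.0411), only the 4 arrays compared (0.0425) and a random mouse block (0.0485). The fit of only 4 arrays leaves out its vismodegib Lgr5-negative arrays, which varied most (standard deviation 1.49).

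For the drug effects a shared mouse number joins different mice (correlations of 0.0096 and −0.107), and with the number as a block Spint2 (0.0484) and Serpina3i (0.0495) also passed in Lgr5-positive cells. Over all genes, 478 calls in Lgr5-negative cells became 234 with only the 4 arrays compared, and 68 between treated populations became 36 without a filter, 11 with only those 4 arrays and 105 with the mouse block. Leaving out 1 array gave 543 to 1823 (from 1566), 65 to 523 (478), 582 to 2852 (2466), 18 to 107 (68) and 2 to 251 (202) calls, in the order of the counts above. A lone array was assumed to vary like the other groups. Signals near the floor of 4.85 (such as Serpinb3a, Serpini1 and Serpinb9) limit what can be seen for those genes.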
